A study of Mus musculus with 6 samples.

Results

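The variable segments of the immunoglobulin heavy chain were examined in CD11b-positive bone marrow cells of Tshr-/- and Tshr+/+ mice. They were taken as the rows of the expression table with the biotype IG_V_gene and a name that begins with Ighv, which gave 113 of 54532 genes in 16 VH families. All 113 lie on the minus strand of chromosome 12 (GRCm38), from Ighv5-2 at position 113578504 to Ighv1-85, which ends at 116000461, a stretch of 2.42 Mb. Tshr, the gene of the receptor for thyroid-stimulating hormone, lies on the same chromosome, 22.0 Mb away.

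Each developing B cell joins 1 V, 1 D and 1 J segment into an exon of its own, and that exon codes for the part of the heavy chain that binds antigen. The V segments make up most of its length, and families are groups of segments with similar sequence. Segments close to the D and J segments can be reached directly, while the distant ones, mostly VH1 and VH8, are brought near by contraction of the locus. Transcripts of these segments are known from cells of the B lineage, most of all from plasma cells, while CD11b is a marker of myeloid cells. Which cells the transcripts read here came from was not tested.

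RNA was sequenced from cells of the tibial marrow, selected with a CD11b kit, in 3 libraries labelled Tshr-/- and 3 labelled Tshr+/+, all from mice 12 weeks old. Numbers 1 to 3 within a genotype come from the titles, and p-values measure the spread between these libraries. Titles give the mutant as Tshr-/-, another label calls it a knockdown, and neither a strain nor the part of the gene removed is given. A label names osteoclast differentiation as treatment for both groups, with no time and no culture step. Values are FPKM, fragments scaled to gene length and library size. Fragments on genes, worked back from FPKM and gene length, numbered 14698126 to 17976477 per library. These totals are not the size used for scaling. In Tshr-/- 3, with 17976477 fragments, 1 fragment on 1 kb stood for 0.0496 FPKM. In Tshr+/+ 2, with 17640437 fragments, it stood for 0.0604 FPKM.

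Markers of the labelled cells were high in every library. Itgam, which encodes CD11b, averaged 109 ± 23.2 FPKM in Tshr-/- against 117 ± 7.33 FPKM in Tshr+/+ (SD, n = 3 each). Tshr itself was read from 40, 25 and 1 fragments in the libraries labelled Tshr-/- 1, 2 and 3, against 55, 55 and 45 fragments in Tshr+/+ 1, 2 and 3. The libraries labelled Tshr-/- 1 and 2 were thus not free of Tshr fragments, and the names used here are those of the labels. The summed level, the VH1, VH2 and VH8 shares and the tests are also given with Tshr-/- 3 as the only library of that label, and other results by library. Libraries with the same number deviated together from their group means over genes with at least 1 FPKM in 3 or more libraries. Differences within numbers are therefore given too. For Tshr-/- 1 the pairing is weak, with a correlation of 0.243 with Tshr+/+ 1 against 0.344 with Tshr+/+ 2.

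The sequences of the 4 most abundant VH1 segments show how alike members of a family are. Shown are the last 240 bases of the germline segment in GENCODE M21 (GRCm38, minus strand, read 5′ to 3′ in the sense of the gene), with capitals where a base differs from Ighv1-81 at the same place. Ighv1-81 lies at chr12:115920279-115920712, Ighv1-64 at chr12:115507545-115508031, Ighv1-26 at chr12:114788372-114788805 and Ighv1-69 at chr12:115623161-115623595.
Ighv1-81: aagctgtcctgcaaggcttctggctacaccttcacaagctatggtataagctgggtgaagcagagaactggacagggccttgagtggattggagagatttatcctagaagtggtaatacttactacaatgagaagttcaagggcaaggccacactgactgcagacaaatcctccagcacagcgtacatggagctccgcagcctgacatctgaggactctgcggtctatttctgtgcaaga
Ighv1-64: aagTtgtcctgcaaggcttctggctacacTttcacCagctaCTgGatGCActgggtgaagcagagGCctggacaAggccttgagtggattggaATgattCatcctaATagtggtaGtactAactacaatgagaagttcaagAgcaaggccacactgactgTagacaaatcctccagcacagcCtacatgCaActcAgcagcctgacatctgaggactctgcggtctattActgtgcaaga
Ighv1-26: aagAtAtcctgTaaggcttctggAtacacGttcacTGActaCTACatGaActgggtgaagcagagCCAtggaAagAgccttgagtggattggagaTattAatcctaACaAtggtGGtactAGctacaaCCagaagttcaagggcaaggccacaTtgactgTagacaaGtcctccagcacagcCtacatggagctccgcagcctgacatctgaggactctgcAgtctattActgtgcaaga
Ighv1-69: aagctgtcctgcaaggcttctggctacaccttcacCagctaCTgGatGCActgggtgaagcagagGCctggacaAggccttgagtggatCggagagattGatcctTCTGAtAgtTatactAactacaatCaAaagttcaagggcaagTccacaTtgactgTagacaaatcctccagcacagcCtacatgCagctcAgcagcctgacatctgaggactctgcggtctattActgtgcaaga
Against Ighv1-81, 26 of these bases differ in Ighv1-64, 36 in Ighv1-26 and 29 in Ighv1-69. The capitals are dense in the first part of the stretch and few toward its 3′ end.

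The last 60 bases follow for the 4 tested segments whose genotypes did not overlap, for Ighv3-6, the leading segment of a Tshr+/+ library, and for Ighv1-64, to show how families differ where V is joined to D. Capitals mark the TGT of the last TGTGC within the final 15 bases. This TGT codes for the conserved cysteine after which the V segment is joined to D. Ighv8-12 lies at chr12:115647945-115648387, Ighv3-6 at chr12:114288152-114288582, Ighv5-17 at chr12:113859149-113859670, Ighv2-3 at chr12:113611187-113611617 and Ighv1-19 at chr12:114708648-114709135.
Ighv8-12: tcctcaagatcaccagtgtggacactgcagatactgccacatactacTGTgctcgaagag
Ighv3-6: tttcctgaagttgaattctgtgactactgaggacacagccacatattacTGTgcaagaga
Ighv5-17: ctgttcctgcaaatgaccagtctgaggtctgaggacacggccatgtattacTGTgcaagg
Ighv2-3: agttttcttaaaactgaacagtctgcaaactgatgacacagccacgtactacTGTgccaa
Ighv1-19: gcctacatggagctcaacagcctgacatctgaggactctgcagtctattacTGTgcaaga
Ighv1-64: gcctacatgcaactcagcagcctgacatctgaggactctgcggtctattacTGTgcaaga
TGTGC stood in that window in 89 of 113 segments. Over the last 294 bases, the median identity between a pair of VH1 segments was 85.0% (1378 pairs), against 51.0% between VH1 and VH8 and 56.9% between VH1 and VH2. Within VH2 it was 91.2%, and within VH8 91.4%.

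This likeness limits the value of a single segment more than that of a family. The nearest relative of a segment was a median of 95.2% identical over those 294 bases, and it belonged to the same family for 108 of 113. Of the 50-base stretches of a tested segment, a median of 77.7% occurred in no transcript of another gene. Ighv1-53 (42.4%) and Ighv2-2 (44.6%) were among the 6 tested segments under 50%. The sources used here give neither how fragments that match several segments were assigned nor whether counting used strand, so a single segment's value may include fragments of its relatives.

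The amount of Ighv RNA varied widely between libraries and did not separate the genotypes. Summed over all segments it was 97.4, 184 and 202 FPKM in Tshr-/- 1, 2 and 3, and 165, 97.6 and 268 FPKM in Tshr+/+ 1, 2 and 3. The lowest library of each group thus held nearly the same sum, and the means were 161 ± 55.9 FPKM in Tshr-/- against 177 ± 85.8 FPKM in Tshr+/+ (SD, n = 3 each). The difference of means turns on single libraries: it was -15.7 FPKM with all 6 libraries and -36.1 FPKM when Tshr-/- 3 was left out. Leaving out Tshr-/- 1 gave 16.2 FPKM and leaving out Tshr-/- 2 gave -27.1 FPKM. The value was 29.9 FPKM with Tshr+/+ 3 left out and -55.3 FPKM with Tshr+/+ 2 left out. Tshr-/- 3 alone, set against Tshr+/+, gave 25.3 FPKM. Scaled to equal totals, the sums were 94.4, 170 and 241 FPKM in Tshr-/- 1, 2 and 3. In Tshr+/+ 1, 2 and 3 they were 162, 90.1 and 282 FPKM, so the groups overlapped. The difference of means was then -9.86 FPKM. Whole fragments on Ighv segments numbered 575 to 1486 in Tshr-/- and 592 to 1816 in Tshr+/+. They made up between 0.00336% and 0.0106% of a library's fragments on genes. In bulk RNA, fewer cells of a type and less RNA per cell cannot be told apart.

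The number of segments detected overlapped between the genotypes too. Of the 113 segments, 100 had a value above 0 in at least 1 library, 72 reached 1 FPKM in at least 1 library, and 18 reached it in all 6. Among these 18 were Ighv1-81, Ighv1-64, Ighv3-6 and Ighv8-12. At 1 FPKM or more stood 28, 50 and 48 segments in Tshr-/- 1, 2 and 3, against 44, 33 and 58 in Tshr+/+ 1, 2 and 3, so the groups overlapped. At any value above 0 stood 67, 76 and 87 segments in Tshr-/- 1, 2 and 3, against 82, 76 and 87 in Tshr+/+ 1, 2 and 3. Drawn down to the 575 fragments of the shallowest library, 67.0, 71.5 and 77.7 segments above 0 were expected in the Tshr-/- libraries. In the Tshr+/+ libraries 75.0, 75.5 and 75.5 were expected, so that these numbers also overlap. The 13 segments listed at 0 everywhere included Ighv16-1, the sole member of VH16.

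**Figure D1:**
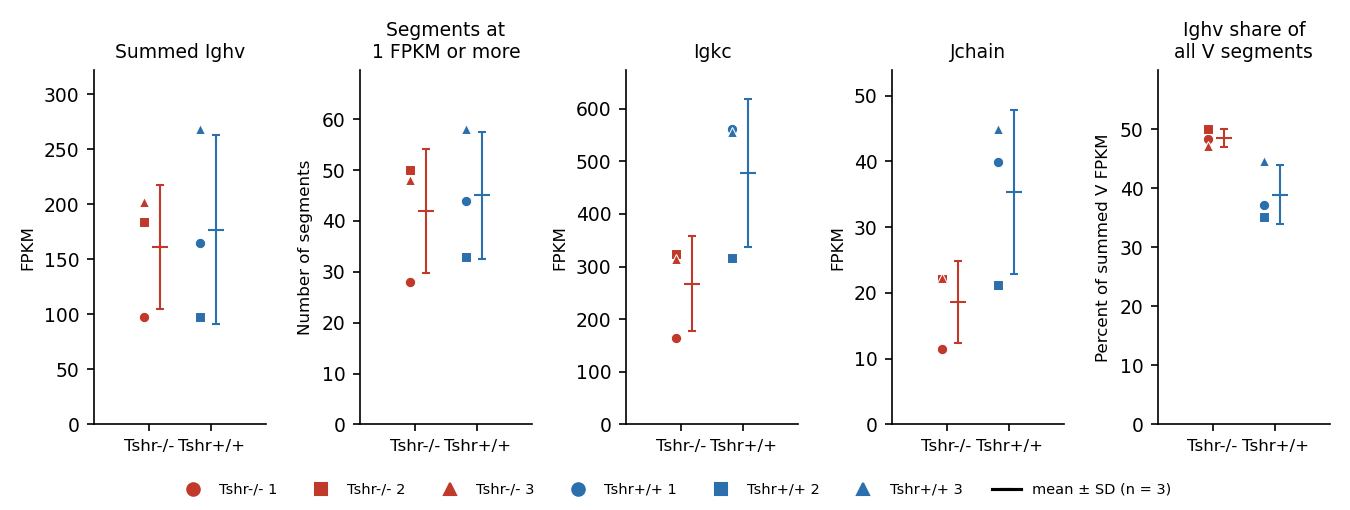
Summed Ighv FPKM, the number of segments with at least 1 FPKM, Igkc and Jchain in FPKM, and the Ighv share of all V segments in percent, for Tshr-/- (left in each panel) and Tshr+/+ libraries. Symbols give the library number and bars the mean ± SD; the sums and numbers overlap, while the Ighv share lies between 47.1% and 49.999% in Tshr-/- and between 35.2% and 44.6% in Tshr+/+.

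Usage was spread over many segments in every library. The most abundant segment held 9.14%, 8.43% and 8.82% of summed Ighv FPKM in Tshr-/- 1, 2 and 3, and 9.16%, 6.42% and 6.96% in Tshr+/+ 1, 2 and 3. It was Ighv1-64 in Tshr-/- 1, Tshr-/- 2 and Tshr+/+ 2, Ighv1-26 in Tshr-/- 3, Ighv3-6 in Tshr+/+ 1 and Ighv1-81 in Tshr+/+ 3. No library was dominated by a single segment. The 10 most abundant segments of a library held 46.0% to 48.6% in Tshr-/- and 41.9% to 44.6% in Tshr+/+, and 50% of the sum was reached with 11 to 12 segments in Tshr-/- and 13 to 14 in Tshr+/+. These last values did not overlap between the groups. The effective number of segments, the exponential of the Shannon entropy of their shares, was 42.9, 44.4 and 47.4 in Tshr-/- and 47.1, 48.1 and 50.9 in Tshr+/+, with 1 Tshr-/- library inside the Tshr+/+ range.

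VH1, the largest family with 53 segments, took a larger share in all 3 Tshr-/- libraries. Its share of summed Ighv FPKM was 61.7%, 62.7% and 64.8% in Tshr-/- 1, 2 and 3, against 51.9%, 58.2% and 59.4% in Tshr+/+ 1, 2 and 3. The groups did not overlap, and the means were 63.0 ± 1.59% in Tshr-/- and 56.5 ± 4.0% in Tshr+/+ (SD, n = 3 each). Within libraries of the same number the difference was 9.75, 4.52 and 5.41 percentage points. It was 4.28 points without Tshr+/+ 1, the library in which the VH3 segment Ighv3-6 led, 8.30 points with Tshr-/- 3 as the only Tshr-/- library, and 3.22 points when the most abundant segment of each library was left out. That step took a VH3 segment from Tshr+/+ 1 and a VH1 segment from every other library. It left VH1 at 57.8%, 59.3% and 61.4% in Tshr-/- 1, 2 and 3. In Tshr+/+ 1, 2 and 3 it left 57.2%, 55.3% and 56.3%. Counting intervals of single libraries overlapped: from whole fragments, the 95% Wilson interval was 57.5% to 65.5% in Tshr-/- 1 and 57.0% to 61.5% in Tshr+/+ 3. Such intervals cover counting error only. The groups stayed apart when any single VH1 segment was left out. Segments of other families also enter the sum and were not left out here. Among them is Ighv2-2, with 12.4 FPKM in Tshr+/+ 3 and 0.530 FPKM in Tshr-/- 1, so the VH1 separation may rest on it too. The summed level of VH1 overlapped, at 102 ± 37.2 FPKM in Tshr-/- against 100.5 ± 52.8 FPKM in Tshr+/+ (SD, n = 3 each). The log2 fold change was above 0 for 12 of its 23 tested segments and below 0 for 11 (median 0.01). Family shares were summed over members and were not put to a test.

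VH8, a family of 9 segments of which 8 lie among those of VH1, also took a larger share in all 3 Tshr-/- libraries. It held 7.51%, 8.35% and 5.98% of the sum in Tshr-/- 1, 2 and 3, against 3.80%, 4.68% and 3.22% in Tshr+/+ 1, 2 and 3. All Tshr-/- values lay above all Tshr+/+ values, with means of 7.28 ± 1.21% in Tshr-/- and 3.90 ± 0.738% in Tshr+/+ (SD, n = 3 each). The differences within numbers were 3.71, 3.67 and 2.76 points, and with Tshr-/- 3 as the only Tshr-/- library the difference was 2.07 points. Without Ighv8-8, VH8 held 6.68%, 7.75% and 3.19% in Tshr-/- 1, 2 and 3, against 3.13%, 4.35% and 2.78% in Tshr+/+ 1, 2 and 3, and the groups overlapped. These shares rest on 42, 77 and 87 fragments in Tshr-/- 1, 2 and 3, and on 38, 27 and 57 in Tshr+/+ 1, 2 and 3. Ighv8-12 was its most abundant segment on average. Pseudogenes, which carry no intact reading frame, are not counted in these shares. The VH8 pseudogene Ighv8-10 was more abundant on average than Ighv8-12. It had 8.50 ± 4.04 FPKM in Tshr-/- against 5.12 ± 1.35 FPKM in Tshr+/+ (SD, n = 3 each), with overlap. The separation of VH8 holds for the counted segments only.

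VH2 took a smaller share in all 3 Tshr-/- libraries. Its 9 segments held 3.34%, 4.24% and 4.55% in Tshr-/- 1, 2 and 3, and 7.32%, 9.26% and 7.70% in Tshr+/+ 1, 2 and 3. Here too the groups did not overlap, with means of 4.04 ± 0.627% in Tshr-/- and 8.09 ± 1.03% in Tshr+/+ (SD, n = 3 each). The differences within numbers were -3.98, -5.02 and -3.16 points, and with Tshr-/- 3 as the only Tshr-/- library the difference was -3.55 points. The separation rests on Ighv2-2 in Tshr+/+ 3. With that segment left out, VH2 held 2.81%, 3.39% and 3.81% in Tshr-/- 1, 2 and 3, against 6.08%, 7.80% and 3.21% in Tshr+/+ 1, 2 and 3, so that the groups overlapped and the third pair changed sign. Of its 6 tested segments, 4 had a log2 fold change below 0, and the median was -0.61.

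VH3 and VH5 were less clear. VH3 held 4.76%, 4.35% and 4.41% in Tshr-/- 1, 2 and 3, and 10.4%, 4.73% and 6.85% in Tshr+/+ 1, 2 and 3, so that Tshr+/+ 2 lay inside the Tshr-/- range. VH5 had means of 7.22 ± 0.246% in Tshr-/- and 8.17 ± 1.13% in Tshr+/+ (SD, n = 3 each), and overlapped. VH14, VH9, VH7, VH6 and VH10 each averaged between 1.18% and 3.34% in Tshr-/- and between 1.99% and 4.20% in Tshr+/+, with overlap. VH11, whose segment Ighv11-2 is known in mice for its use by B-1 cells, was rare but did not overlap. It held 0.554%, 0.336% and 0.320% in Tshr-/-, from 4, 4 and 6 fragments, and 0.0772%, 0.134% and 0.0875% in Tshr+/+, from 1, 1 and 2 fragments. In all, 3 of 15 families with a value were higher and 1 lower without overlap. Over all genes tested, 3.23% were higher and 3.55% lower without overlap, though a family share is a sum and not a single gene. Of the families counted, VH11 rests on few fragments, and VH8 and VH2 separated only with Ighv8-8 and Ighv2-2 included. For VH1, only its own segments were left out in turn, not those of other families. Shares within a library add up to a whole, so family shares are not independent of each other.

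**Figure D2:**
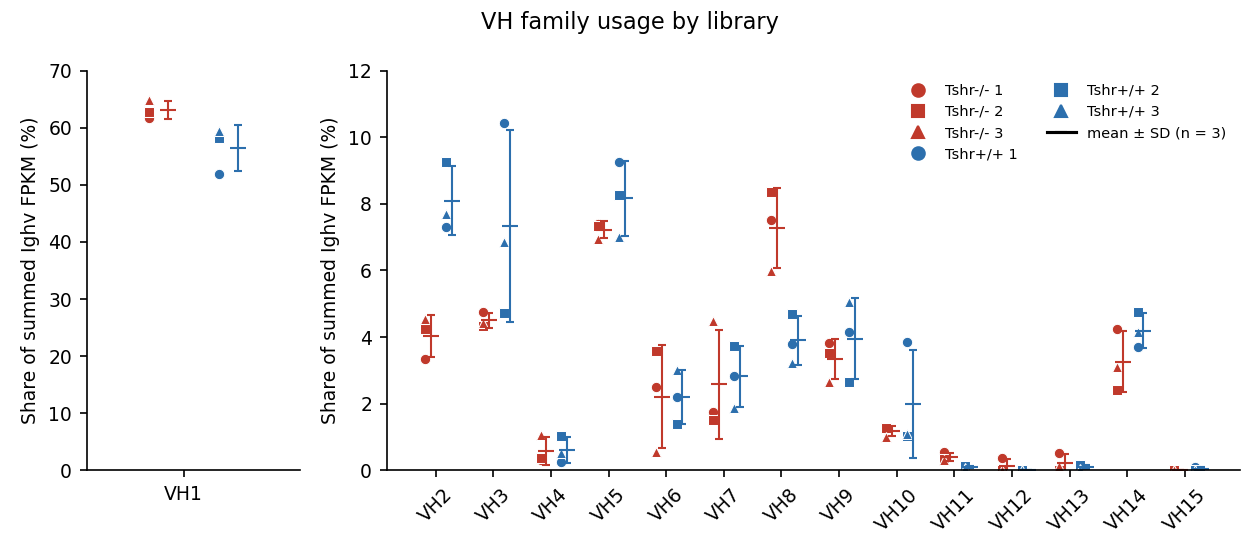
Share of each VH family in summed Ighv FPKM, in percent, for Tshr-/- (red, left) and Tshr+/+ (blue, right) libraries; VH1 has an axis of its own. Symbols are libraries and bars the mean ± SD; VH1 and VH8 lie higher and VH2 lower in all 3 Tshr-/- libraries, for VH8 and VH2 only with Ighv8-8 and Ighv2-2 included, and most other families overlap.

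Position along the locus restates the family shares, since VH1 and VH8 lie far from the D and J segments. The border was set at the first VH1 segment, at position 114487136, after the family values had been seen. Beyond it lie 63 segments, all 53 of VH1, 8 of VH8 and 2 others, so that this is no separate evidence; the 50 segments nearer to the D and J segments belong to the remaining families and hold 1 VH8 segment. The distant region gave 69.2%, 71.2% and 71.0% of summed Ighv FPKM in Tshr-/- 1, 2 and 3, against 56.0%, 62.9% and 63.2% in Tshr+/+ 1, 2 and 3. The groups did not overlap, with means of 70.5 ± 1.13% in Tshr-/- and 60.7 ± 4.05% in Tshr+/+ (SD, n = 3 each). Differences within numbers were 13.2, 8.39 and 7.84 points. Tshr-/- 3, the library almost free of Tshr fragments, lay with the other Tshr-/- libraries here. Of the tested segments in the distant region 15 had a higher and 11 a lower log2 value in Tshr-/- (median log2 fold change 0.04), and in the near region 8 a higher and 15 a lower value (median -0.20).

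**Figure D3:**
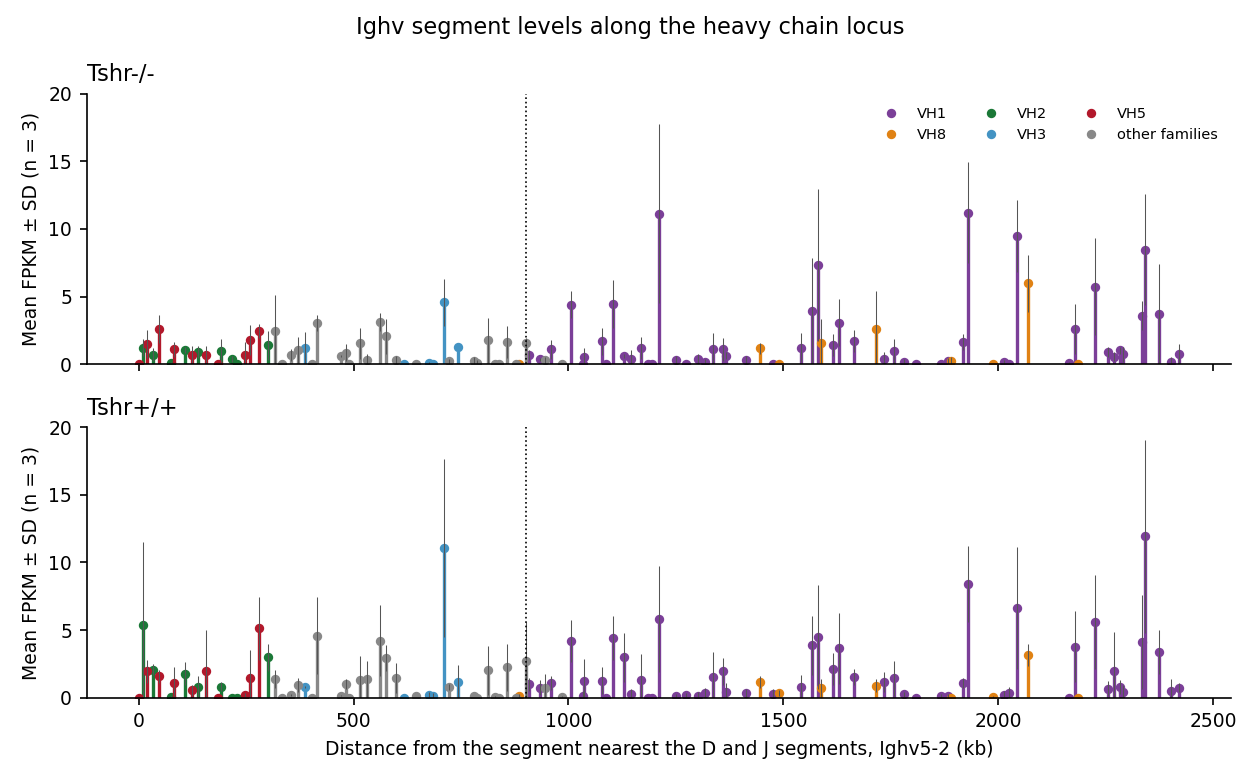
Mean FPKM of each Ighv segment against its distance in kb from Ighv5-2, for Tshr-/- (top) and Tshr+/+ (bottom). Thin bars are the SD of 3 libraries, cut at 0 below, colours are families, and the dotted line marks the first VH1 segment; the distant region held 70.5% of the sum in Tshr-/- and 60.7% in Tshr+/+.

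Tests of single segments passed for none. Of the 113 segments, 49 reached 1 FPKM in 3 or more libraries and were tested together with all other such genes, 10913 in all. The remaining 64 did not meet this filter and were not tested. With limma on log2(FPKM + 1), 0 of 49 segments and 0% of all genes passed an adjusted p of 0.05, and each of the 49 had an adjusted p = 0.9997. At an unadjusted p under 0.05 stood 1 higher and 3 lower segments, or 2.04% and 6.12% of the 49, against 1.43% and 1.48% of all genes. The groups did not overlap for the same numbers, 1 higher and 3 lower, against a background of 3.23% higher and 3.55% lower. These shares rest on 4 segments. With the replicate number as a block, 4 higher and 5 lower segments, or 8.16% and 10.2% of the 49, had an unadjusted p under 0.05, against 2.46% and 3.5% of all genes, and 0 passed the adjusted threshold. Of the 49, 23 had a higher and 26 a lower value, with a median log2 fold change of -0.05, beside -0.01 over all genes tested.

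Ighv8-12 was the segment without overlap on the higher side (ENSMUSG00000076731). It had 4.69, 8.37 and 4.85 FPKM in Tshr-/- 1, 2 and 3, against 2.95, 2.53 and 4.08 FPKM in Tshr+/+ 1, 2 and 3. Its log2 fold change was 0.71 ± 0.23 (SE; limma unadjusted p = 0.0191, adjusted p = 0.9997). The other tested VH8 segments were Ighv8-8, with 2.63 ± 2.77 FPKM in Tshr-/- against 0.898 ± 0.486 FPKM in Tshr+/+, and Ighv8-4, with 1.18 ± 0.401 FPKM in Tshr-/- against 1.15 ± 0.451 FPKM in Tshr+/+ (SD, n = 3 each). The mean of Ighv8-8 in Tshr-/- rests on library 3, with 5.82 FPKM.

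Ighv2-3, Ighv1-19 and Ighv5-17 had all Tshr-/- values below all Tshr+/+ values. Ighv2-3 (ENSMUSG00000094164) had 0.358, 1.23 and 0.572 FPKM in Tshr-/- 1, 2 and 3, and 1.69, 2.09 and 2.49 FPKM in Tshr+/+ 1, 2 and 3. Ighv1-19 (ENSMUSG00000096410) had 0.460, 0.704 and 0.735 FPKM in Tshr-/-, against 2.75, 1.34 and 4.94 FPKM in Tshr+/+, so that within VH1 it ran against its family's share. For Ighv5-17 (ENSMUSG00000095571) the values were 3.07, 2.11 and 2.21 FPKM in Tshr-/-, against 7.83, 3.73 and 3.87 FPKM in Tshr+/+, with Tshr+/+ 1 far above the rest. Their log2 fold changes were -0.87 ± 0.22, -1.20 ± 0.32 and -0.77 ± 0.26 (SE), at unadjusted p = 0.00525, 0.00777 and 0.0215, and each at an adjusted p = 0.9997 with limma. Over the 6 libraries they were read from 50, 78 and 158 fragments.

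The 2 most abundant segments overlapped between the genotypes. Ighv1-81 (ENSMUSG00000094689) had 4.25, 12.4 and 8.77 FPKM in Tshr-/- 1, 2 and 3, and 12.7, 4.47 and 18.6 FPKM in Tshr+/+ 1, 2 and 3. Ighv1-64 (ENSMUSG00000094088) had 8.90, 15.5 and 9.19 FPKM in Tshr-/-, against 7.39, 6.26 and 11.6 FPKM in Tshr+/+. For both, library 2 was the highest of Tshr-/- and library 3 the highest of Tshr+/+.

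Ighv1-26 (ENSMUSG00000094546) had 4.60, 10.97 and 17.8 FPKM in Tshr-/- 1, 2 and 3, and 3.01, 4.13 and 10.3 FPKM in Tshr+/+ 1, 2 and 3, higher in Tshr-/- within every number. Ighv1-69 (ENSMUSG00000094502) did the same, with 6.73, 9.75 and 12.0 FPKM in Tshr-/-, against 3.85, 4.30 and 11.9 FPKM in Tshr+/+. Their log2 fold changes were 0.81 ± 0.53 and 0.57 ± 0.39 (SE), and neither passed (limma adjusted p = 0.9997).

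Ighv3-6 (ENSMUSG00000076672), the leading VH3 segment, had 2.66, 6.11 and 4.96 FPKM in Tshr-/- 1, 2 and 3, and 15.1, 3.45 and 14.7 FPKM in Tshr+/+ 1, 2 and 3. Tshr+/+ 2 lay among the Tshr-/- values, and the log2 fold change was -0.95 ± 0.52 (SE; limma adjusted p = 0.9997). Ighv2-2 (ENSMUSG00000096464), the most abundant of VH2, had 12.4 FPKM in Tshr+/+ 3 and between 0.530 and 2.17 FPKM in the other 5 libraries.

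**Figure D4:**
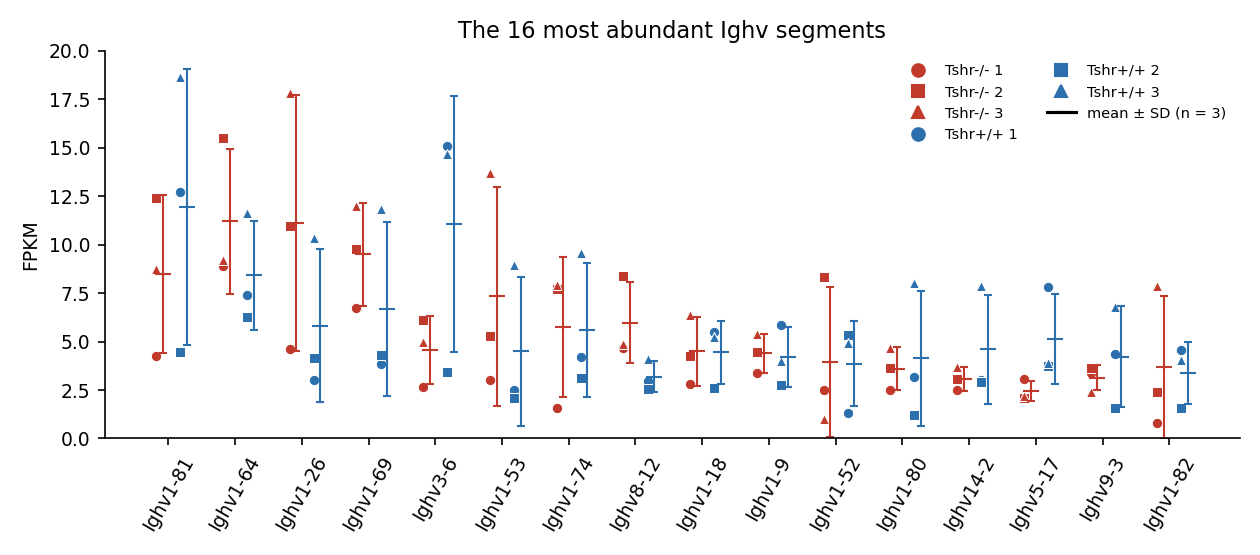
FPKM of the 16 most abundant Ighv segments in Tshr-/- (red, left) and Tshr+/+ (blue, right) libraries, ordered by their mean over 6 libraries. Symbols are libraries and bars the mean ± SD, cut at 0 below; of these segments, Ighv8-12 and Ighv5-17 show no overlap.

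Other leading segments stood close between the genotypes or varied within them. Ighv1-18 averaged 4.49 ± 1.77 FPKM in Tshr-/- against 4.45 ± 1.62 FPKM in Tshr+/+, and Ighv1-9 averaged 4.40 ± 1.01 FPKM in Tshr-/- against 4.20 ± 1.56 FPKM in Tshr+/+ (SD, n = 3 each). Ighv1-74 had means of 5.74 ± 3.595 FPKM in Tshr-/- against 5.61 ± 3.46 FPKM in Tshr+/+. Ighv1-53 had 7.34 ± 5.64 FPKM in Tshr-/- against 4.50 ± 3.85 FPKM in Tshr+/+, with 13.7 FPKM in Tshr-/- 3. Of the leading segments of smaller families, Ighv14-2 had 3.07 ± 0.598 FPKM in Tshr-/- against 4.60 ± 2.82 FPKM in Tshr+/+, and Ighv9-3 had 3.14 ± 0.656 FPKM in Tshr-/- against 4.22 ± 2.62 FPKM in Tshr+/+. Ighv10-1 reached 6.05 FPKM in Tshr+/+ 1 and 1.01 to 1.99 FPKM in the other libraries. Ighv7-3 averaged 2.05 ± 1.32 FPKM in Tshr-/- against 2.94 ± 0.956 FPKM in Tshr+/+, Ighv6-6 1.63 ± 1.19 FPKM in Tshr-/- against 2.25 ± 1.72 FPKM in Tshr+/+, and Ighv4-1, the only segment of VH4, 1.05 ± 0.980 FPKM in Tshr-/- against 0.961 ± 0.508 FPKM in Tshr+/+ (SD, n = 3 each). The single segments of VH12, VH13 and VH15 were read from 2, 8 and 1 fragments over all libraries. Of the 49 tested segments, 48 differed by at least 2 times between the lowest and the highest library, those listed at 0 in a library included.

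**Figure D5:**
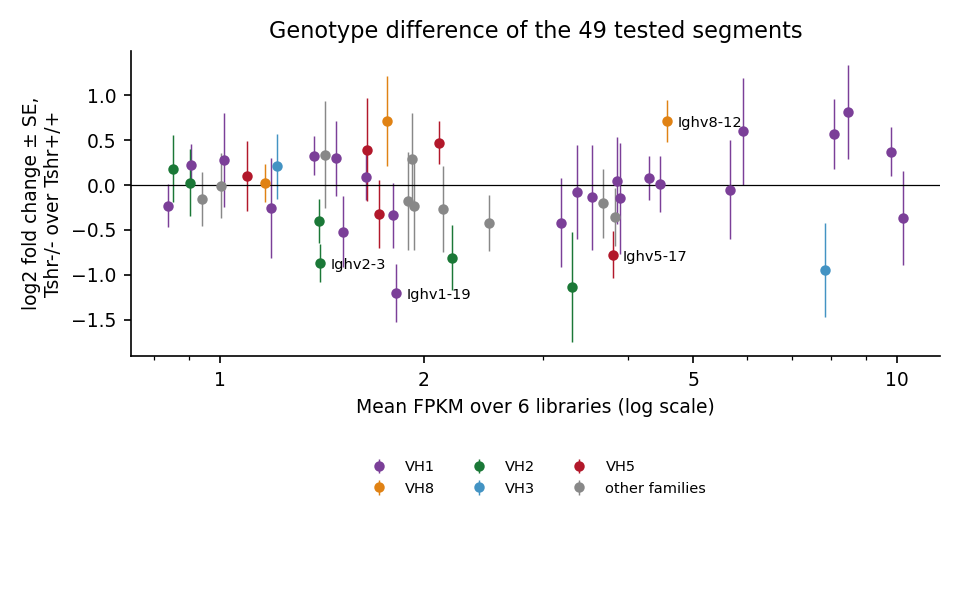
Log2 fold change of Tshr-/- over Tshr+/+ (points, with SE from limma) against mean FPKM on a log axis for the 49 tested Ighv segments, coloured by family. The 4 named segments are those whose groups do not overlap; the median was -0.05 and none passed the adjusted threshold.

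Light chain constant genes and Jchain had lower means in Tshr-/-, with none past the threshold. Igkc, the constant region of the kappa chain, averaged 268 ± 89.7 FPKM in Tshr-/- against 478 ± 140 FPKM in Tshr+/+ (SD, n = 3 each). Jchain, which joins secreted antibody into polymers, averaged 18.7 ± 6.25 FPKM in Tshr-/- against 35.3 ± 12.5 FPKM in Tshr+/+ (SD, n = 3 each). By library, Igkc had 164, 324 and 315 FPKM in Tshr-/- 1, 2 and 3, against 561, 316 and 556 FPKM in Tshr+/+ 1, 2 and 3. Jchain had 11.4, 22.2 and 22.3 FPKM in Tshr-/-, against 39.9, 21.2 and 44.9 FPKM in Tshr+/+. Both genes overlapped, and within number 2 both were slightly higher in Tshr-/-. Ighv segments took 48.4%, 49.999% and 47.1% of the summed FPKM of all V segments in Tshr-/- 1, 2 and 3, against 37.1%, 35.2% and 44.6% in Tshr+/+ 1, 2 and 3, with no overlap. This ratio was formed after the values had been seen, and summed Ighv FPKM itself overlapped. Summed kappa V segments overlapped too, at 98.5, 169 and 204 FPKM in Tshr-/-, against 240, 156 and 307 FPKM in Tshr+/+. Lambda V segments did not, at 5.13, 15.2 and 23.1 FPKM in Tshr-/-, against 39.6, 23.8 and 26.6 FPKM in Tshr+/+. Ighv over summed heavy chain constant genes overlapped, at 0.598, 0.677 and 0.930 in Tshr-/-, against 0.585, 0.501 and 0.788 in Tshr+/+. Ighv over Igkc did not overlap. Among heavy chain constant genes, the ratio of Ighm, of IgM, to Igha, of IgA, was 1.25, 0.744 and 0.661 in Tshr-/-, and 0.243, 0.379 and 0.364 in Tshr+/+. This ratio was not planned either, and each gene overlapped on its own. Ighm had 79.5, 106 and 74.9 FPKM in Tshr-/-, against 50.9, 49.6 and 82.2 FPKM in Tshr+/+. Igha had 63.6, 142 and 113 FPKM in Tshr-/-, against 209, 131 and 226 FPKM in Tshr+/+. The part of antibody class in the family shares was not tested.

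Markers of B cells and pre-B cells were low in every library. Of 10 B cell markers, 8 stayed under 1 FPKM in every library, among them Ms4a1, which encodes CD20, and the transcription factor Pax5. Cd79a and Cd79b, the signalling chains of the antigen receptor, were tested. The sum of all 10 lay between 4.10 and 9.13 FPKM in Tshr-/- and between 6.17 and 10.1 FPKM in Tshr+/+, and no marker was at 0 in all libraries. Both tested members had a log2 fold change below 0 (median -0.24). The 5 pre-B markers, such as the surrogate light chain gene Vpreb1, summed to between 0.482 and 1.85 FPKM in Tshr-/- and between 0.454 and 1.33 FPKM in Tshr+/+. Of 8 plasma cell markers 5 were tested, 1 with a higher and 4 with a lower value (median log2 fold change -0.37). The sum of all 8 lay between 66.6 and 88.3 FPKM in Tshr-/- and between 67.9 and 104 FPKM in Tshr+/+, with Xbp1, which other secretory and myeloid cells express too, and Jchain as the largest parts. Mzb1, a chaperone of antibody secretion, had 1.83 ± 0.817 FPKM in Tshr-/- against 3.73 ± 1.30 FPKM in Tshr+/+ (SD, n = 3 each). None of these lists held a gene past the threshold, and their part in segment usage was not tested.

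The genes that cut and join the segments were nearly silent or general. Rag1 and Rag2, the recombinase that cuts at V, D and J segments, stayed at or under 0.120 FPKM and 0.0290 FPKM in every library. Dntt, which adds bases at the joints, had 0.567 ± 0.213 FPKM in Tshr-/- against 0.192 ± 0.164 FPKM in Tshr+/+ (SD, n = 3 each), below the filter. The groups overlapped, with 0.321 FPKM in Tshr-/- 1 and 0.381 FPKM in Tshr+/+ 3. Of the 10 genes 4 were tested, 3 with a higher and 1 with a lower value and a median log2 fold change of 0.14, and none passed. They were Xrcc4, Xrcc6, Nhej1 and Dclre1c, which act in the joining of DNA ends in cells of every kind. Dclre1c, the most abundant, had 7.11 ± 2.57 FPKM in Tshr-/- against 6.59 ± 3.22 FPKM in Tshr+/+, and Xrcc4, which did not overlap, 1.64 ± 0.0471 FPKM in Tshr-/- against 1.42 ± 0.120 FPKM in Tshr+/+ (SD, n = 3 each). Of the constant genes, 5 of 8 of the heavy chain were tested, 3 higher and 2 lower (median 0.17), and all 4 of the light chains were lower (median -0.64), with no gene past the threshold. Iglc1, of a lambda chain, had 6.16, 6.91 and 11.4 FPKM in Tshr-/- 1, 2 and 3, against 26.6, 18.3 and 19.3 FPKM in Tshr+/+ 1, 2 and 3, without overlap. Its log2 fold change was -1.32 ± 0.24 (SE; limma unadjusted p = 0.000963, adjusted p = 0.9997). Igkc, Iglc2 and Iglc3 overlapped.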

How the data were processed

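RNA from CD11b-selected bone marrow cells was sequenced in 6 libraries, 3 labelled Tshr-/- and 3 labelled Tshr+/+. The authors deposited FPKM per gene with gene length, biotype and position; per the submitters' processing notes the build was GRCm38 (mm10), and the sources used here name no aligner or counter. The columns headed WT and HO were read as Tshr+/+ and Tshr-/-, HO being taken as homozygous. FPKM times gene length gave whole fragments in every library (100% of nonzero values within 0.05, the most highly expressed genes not checked), which was used for depth, counting intervals and a voom alternative.

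Genes that reached 1 FPKM in 3 or more libraries were fitted together with limma 3.58.1 (R 4.3.3) on log2(FPKM + 1), with a mean-variance trend and Benjamini-Hochberg adjustment over all of them, at a threshold of 0.05. This fold change understates changes of low genes. Sums, shares and ratios were described without a test. Sequences came from GENCODE M21 transcripts, matched by gene, for 113 of 113 segments.

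Libraries of the same number, as the titles give it, deviated together over the genes that met this filter (correlations 0.243, 0.262 and 0.468, though Tshr-/- 1 also reached 0.344 with Tshr+/+ 2), which pairs them by the rule used, and a fit with the number as a block was an alternative. Others were another pseudocount, no filter, a filter on the mean, equal totals, quantile normalization, voom, leaving out each library and, chosen after seeing the data, Tshr-/- 3 as the only Tshr-/- library, equal numbers of fragments, and the VH1, VH2 and VH8 shares without each of their segments in turn. The text names segments past the threshold, the 10 most abundant tested, the most abundant of each family that was tested, those with the smallest p among segments without overlap, and a few of each gene list. Members and lists were chosen with earlier results of these data known.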

Additional observations from a re-analysis of the deposited data

How the results depend on the processing

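No Ighv segment passed the threshold in the reported fit or in any of 14 alternatives, among them voom (0 of 31 segments tested) and the replicate block, which changed no call (smallest adjusted p of a segment 0.740). Over all alternatives the smallest adjusted p of a named segment was 0.201, without Tshr+/+ 3. The difference in VH1 share was 3.22 points without the most abundant segment of each library, a VH3 segment in Tshr+/+ 1 only, against 6.56 with it. The difference in VH2 share was -2.36 points without Ighv2-2, against -4.05 with it, and that in VH8 share 2.07 points with Tshr-/- 3 alone, against 3.38. With 1 library left out the VH2 difference lay between -4.44 and -3.47 points and the VH8 difference between 2.84 and 4.03. With 1 library left out the VH1 difference lay between 4.28 and 8.004 points, the most abundant segment's share difference between 0.738 and 2.11 points, the median log2 fold change between -0.18 and 0.13, the difference in segments detected between -9 and 4 and that in summed FPKM between -55.3 and 29.9. The median was 0.21 with Tshr-/- 3 alone and -0.24 with voom. Of 278 values of 20 named segments, 257 kept their direction, and none of the 4 segments without overlap reversed. Ighv4-1 reversed at 0.041 with equal totals, 0.025 with quantile normalization and 0.72 with Tshr-/- 3 alone, where Ighv1-74 (0.55) and Ighv7-3 (0.24) reversed too. With 1 library left out, log2 fold changes ran from -0.90 to 0.027 for Ighv1-81, -0.35 to 0.54 for Ighv1-74, -0.27 to 0.24 for Ighv1-18, -0.13 to 0.30 for Ighv1-9, -0.37 to 0.27 for Ighv4-1, -0.71 to 0.14 for Ighv6-6, -0.65 to 0.15 for Ighv9-3, -0.58 to 0.33 for Ighv10-1 and -0.56 to 0.026 for Ighv14-2. The cause was not tested. Depth limits single segments: the tested ones had 31 to 401 fragments over 6 libraries.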

Other observations

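Some Ighv pseudogenes, which carry no intact reading frame, had values as high as those of the functional segments. Of 70 in the table, 16 were above 0 in at least 1 library and 4 had at least 1 FPKM in at least 3. Ighv8-10 had 8.86, 12.4 and 4.30 FPKM in Tshr-/- 1, 2 and 3, and 3.61, 5.56 and 6.19 FPKM in Tshr+/+ 1, 2 and 3. Ighv1-41 had 4.72, 7.80 and 6.94 FPKM in Tshr-/-, and 1.78, 2.02 and 11.2 FPKM in Tshr+/+. Both overlapped between the genotypes, and neither is counted in the family shares. Summed over all pseudogenes, the values were 15.7, 25.2 and 16.5 FPKM in Tshr-/-, and 8.71, 12.1 and 23.9 FPKM in Tshr+/+, with overlap.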
